A study of Arabidopsis thaliana with 6 samples.

Results

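The mitochondrial genes nad4L and atp4 were followed through RNA, ribosome footprints, footprints relative to RNA and codon frame in mitochondria of Arabidopsis thaliana leaves. They were chosen by name as 2 of the 24 genes with values, because they are neighbours: no other entry lies between them on the mitochondrial genome in the TAIR10.1 gene table. Ribosome profiling sequences the fragments of messenger RNA that ribosomes cover, so a footprint level reports ribosomes on a message and the RNA level reports the message itself. The compared plants were the P2 phenotype and the P3 phenotype of a heterozygous rps10 mutant (labelled Rps10 +/-), and wild type (WT), all of ecotype Col-0 and sampled as youngest leaves at 9 to 10 weeks. Both phenotypes come from this 1 mutant, and the labels do not say how they differ. RPS10 is a nuclear gene for a small-subunit protein of mitochondrial ribosomes, and its level was not analysed here. Mutant seedlings were raised on kanamycin at 50 mg per litre and WT seedlings without it, and an isolation used about 15 g of mutant leaves against about 30 g of WT leaves, so kanamycin, leaf amount and genotype cannot be told apart.

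Each kind of plant had 1 footprint library and 1 RNA library, and each library pooled 15 mitochondrial preparations. No difference below has a replicate check and no test was possible, so values are descriptions of these 6 libraries. P2 and P3 were both set against the same WT libraries. Levels are in TPM, a unit that divides reads by gene length and is scaled so that the 24 genes sum to 1000000, so each level is relative to the other genes and says nothing of the amount in a mitochondrion. In pooled mitochondria, fewer mitochondria of a kind and less RNA in each cannot be told apart.

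nad4L encodes a small, hydrophobic subunit of the membrane arm of complex I, the NADH dehydrogenase that passes electrons into the respiratory chain and pumps protons. atp4, long known in plants as orf25, encodes subunit b of complex V, the ATP synthase, where it belongs to the peripheral stalk that holds the catalytic head still while the rotor turns. Complex I thus helps build the proton gradient and complex V spends it to make ATP. Both are assembled from proteins made on mitochondrial ribosomes together with many proteins imported from the cytosol.

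The libraries differed in ways that touch every value of the genes. Mitochondrial coding sequence (CDS) took 0.530% of all footprint reads in P2 and 0.407% in P3, against 5.37% in WT, and 37.3%, 37.4% and 45.8% of the RNA reads in the same order. The footprint libraries held 80146 CDS reads in P2, 48653 in P3 and 416254 in WT. With tRNA and rRNA set aside, 82.7% of mitochondrial footprint reads in P2, 85.1% in P3 and 37.4% in WT lay outside CDS. Reads of the plastid genome were 1.22%, 1.21% and 5.32% of the RNA reads. The part of these differences in the results below was not tested. Reads per gene are not listed as counts, and no counting interval was computed for a gene's value.

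The RNA of the pair was at nearly the same level in WT and was not in the mutants. nad4L RNA stood at 50401 TPM in P2 and 48949 TPM in P3, against 43620 TPM in WT. atp4 RNA stood at 31525 TPM in P2 and 26648 TPM in P3, against 44266 TPM in WT. The atp4 message was thus the lower of the pair in both mutants, and lowest in P3, while the nad4L levels lay close together. The ratio of nad4L over atp4 RNA was 1.60 in P2 and 1.84 in P3, against 0.985 in WT.

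**Figure D1:**
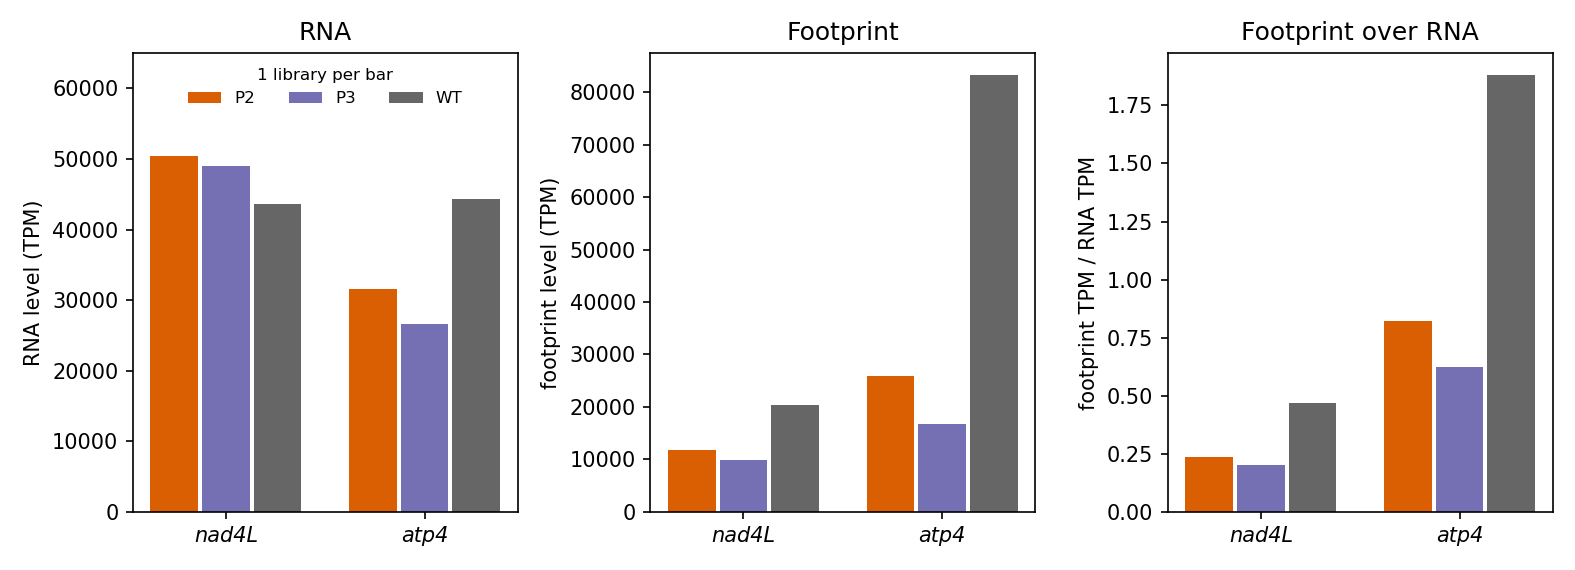
RNA level (TPM), footprint level (TPM) and their quotient for nad4L and atp4, with 1 bar per library in the order P2, P3 and WT. In RNA, atp4 lies below nad4L in P2 and P3 and level with it in WT. Both genes have fewer footprint TPM and a lower quotient in P2 and P3 than in WT.

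On the log2 scale nad4L RNA was 0.21 for P2 over WT and 0.17 for P3 over WT, and neither reached the 1.5-fold rule of size (0.585) used here. atp4 RNA was -0.49 for P2 over WT and -0.73 for P3 over WT, so it was lower by that rule in P3, where 8.33% of the 24 genes were, and was not called in P2, where 8.33% were also lower. Because TPM sum to a fixed total, these ratios depend on what the other genes did. The median of the 24 genes stood at 0.84 in P2 and 0.78 in P3, and relative to it nad4L was -0.63 and -0.62 and atp4 -1.33 and -1.51. The direction of nad4L RNA therefore depends on the scaling: it was negative with median-of-ratios scaling (-0.62 in both), with scaling by the CDS share of all reads of a library (-0.086 in P2 and -0.12 in P3) and without atp9, the gene with the most RNA (-0.019 in both). The atp4 RNA ratio stayed negative under each of these scalings and passed the rule in P2 as well (-1.32, -0.78 and -0.72).

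The change between the genes does not depend on scaling, since both come from the same library. The log2 ratio of nad4L over atp4 RNA was 0.70 higher in P2 than in WT and 0.90 higher in P3 than in WT. Over all 276 pairs of the 24 genes the median absolute change was 0.86 for P2 and 0.92 for P3, and 67.4% of the pairs changed by 1.5-fold or more in each. The RNA of these neighbours therefore moved apart by about as much as that of a typical pair of genes.

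Footprints on both genes were lower in both mutants. atp4 had 25862 footprint TPM in P2 and 16678 TPM in P3, against 83291 TPM in WT. nad4L had 11865 footprint TPM in P2 and 9938 TPM in P3, against 20459 TPM in WT. In WT atp4 ranked 4 of 24 genes by footprints and nad4L ranked 12. In P2 atp4 ranked 15 and nad4L 18, and in P3 they ranked 17 and 20.

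Of all 24 genes atp4 had the lowest footprint ratio in each mutant, 3.22-fold lower in P2 than in WT and 4.99-fold lower in P3 than in WT (log2 ratios -1.69 and -2.32). nad4L was 1.72-fold lower in P2 than in WT and 2.06-fold lower in P3 than in WT (-0.79 and -1.04), which placed it at rank 7 from the lowest in each. Both genes were lower by the 1.5-fold rule in both mutants, as were 29.2% of the 24 genes in P2 and 29.2% in P3. The median of the 24 genes stood at 1.30 in P2 and 1.32 in P3, and relative to it nad4L was -2.09 and -2.36 and atp4 -2.99 and -3.64. Without cox3, the gene with the highest mean footprint TPM over the libraries, nad4L in P2 missed the rule at -0.581. cox3 ranked 1 of 24 in footprints in P2 and P3 and 6 in WT. Scaling by the CDS share of reads brings in the lower CDS share of the mutant footprint libraries, whose cause was not tested. The footprint ratios were then -4.13 in P2 and -4.77 in P3 for nad4L and -5.03 and -6.04 for atp4.

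The ratio of nad4L over atp4 footprints was 0.459 in P2 and 0.596 in P3, against 0.246 in WT, so the pair stood closer together in the mutants. This was not particular to the pair. The median absolute log2 gap between 2 genes, over all 276 pairs, was 1.47 in P2 and 1.49 in P3, against 3.13 in WT. On the log2 scale the ratio of nad4L over atp4 footprints was 0.90 higher in P2 than in WT and 1.28 higher in P3 than in WT. The median absolute change over the 276 pairs was 2.23 for P2 and 2.61 for P3, and 86.6% and 89.9% of the pairs changed by 1.5-fold or more. In P2 62 pairs changed less than these neighbours and 213 changed more, and in P3 73 changed less and 202 more. By construction the footprint change of a pair is the sum of its RNA change and its footprint over RNA change, and the RNA change made up 77.5% of it in P2 and 70.3% in P3.

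**Figure D2:**
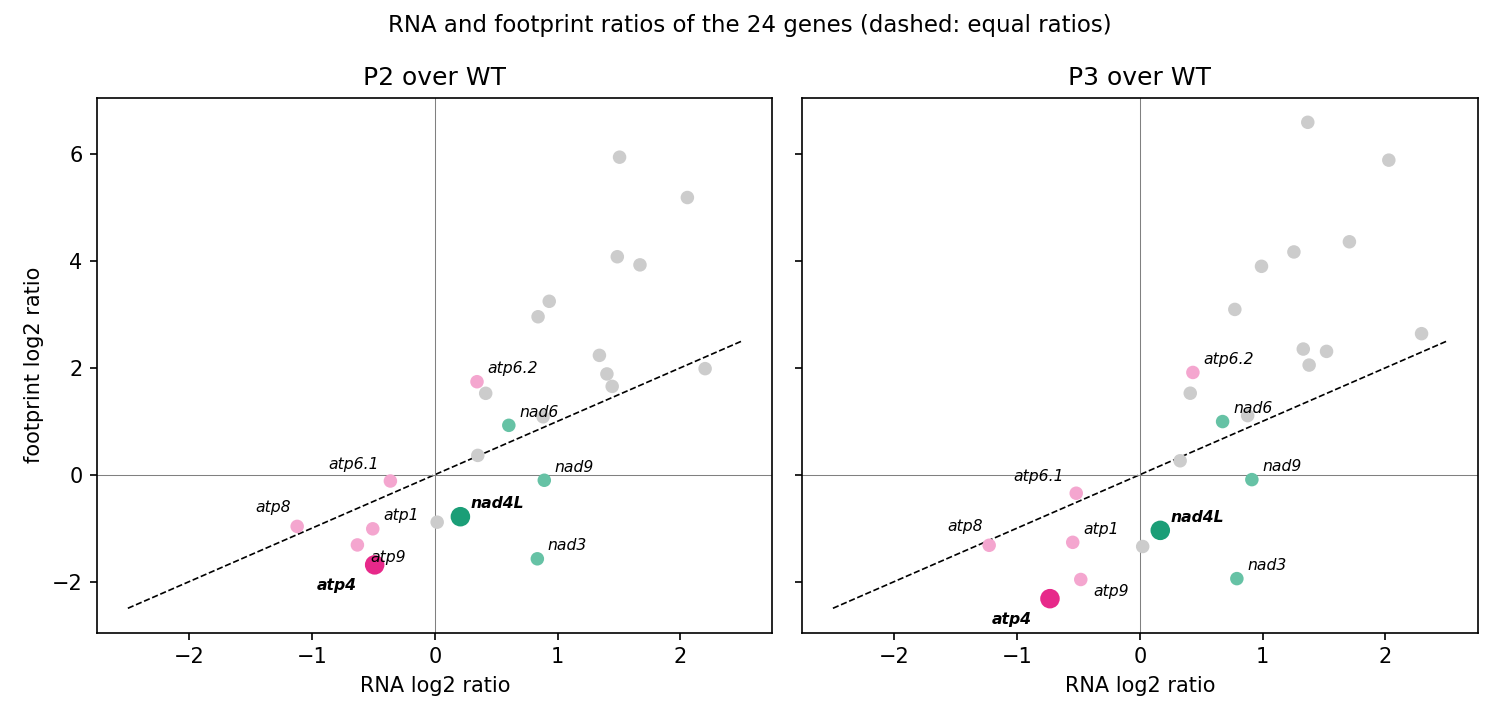
Footprint log2 ratio (vertical) against RNA log2 ratio (horizontal) of the 24 genes for P2 over WT and P3 over WT, with complex I genes in green, complex V genes in pink and other genes in grey. nad4L and atp4 lie below the dashed line of equal ratios, and atp4 is the lowest point in each panel at -1.69 and -2.32.

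Footprints per message, taken as footprint TPM over RNA TPM, were lower for both genes in both mutants. nad4L had 0.235 in P2 and 0.203 in P3, against 0.469 in WT. atp4 had 0.820 in P2 and 0.626 in P3, against 1.88 in WT. In WT atp4 had the second highest value of the 24 genes and nad4L ranked 17, although rps7 at 1.88 and cox3 at 1.86 stood so close to atp4 that their order cannot be told. In both mutants nad4L had the lowest value of all 24 genes, with the next at 0.325 (ccmB) in P2 and 0.274 (atp9) in P3, and atp4 ranked 16 in P2 and 20 in P3. The mutant footprint libraries held few CDS reads (80146 in P2 and 48653 in P3). With no counting interval for a gene, how firm these mutant ranks are was not worked out. The median over the 24 genes was 0.869 in P2, 0.963 in P3 and 0.773 in WT, so nad4L lay below the median in every kind of plant and atp4 lay above it in WT alone.

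**Figure D3:**
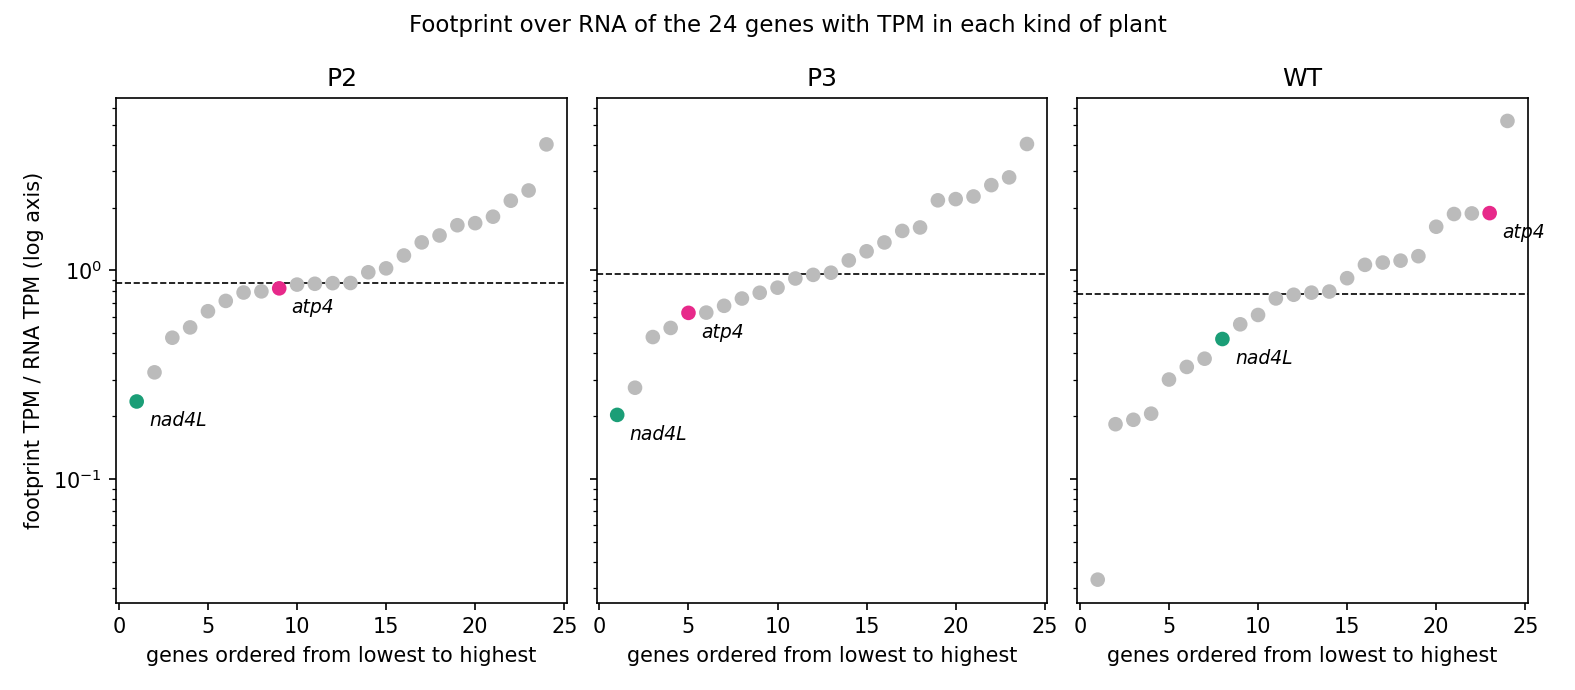
Footprint TPM over RNA TPM (log axis) of the 24 genes, ordered from lowest to highest within P2, P3 and WT, with nad4L in green, atp4 in magenta and the median as a dashed line. nad4L is the lowest point in P2 and P3 at 0.235 and 0.203, and atp4 is the second highest in WT at 1.88.

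nad4L was 1.99-fold lower in P2 than in WT and 2.31-fold lower in P3 than in WT by this measure (log2 ratios -0.99 and -1.21). atp4 was 2.29-fold lower in P2 than in WT and 3.01-fold lower in P3 than in WT (-1.20 and -1.59). Both were lower by the 1.5-fold rule in both mutants, as were 25% of the 24 genes in P2 and 29.2% in P3. Around a median gene at 0.23 in P2 and 0.33 in P3, nad4L was -1.22 and -1.54 and atp4 -1.42 and -1.92. nad4L missed the rule in P2 (-0.562) without the most abundant gene of each assay. With CDS-share scaling the ratios were -4.04 and -4.64 for nad4L and -4.25 and -5.02 for atp4.

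The distance between the neighbours changed little by this measure. nad4L had 0.287 of the atp4 value in P2 and 0.324 in P3, against 0.249 in WT. The log2 difference was 0.20 for P2 and 0.38 for P3 relative to WT, below the 1.5-fold rule, while 79.7% of the 276 pairs in P2 and 83.3% in P3 changed by at least that much. The median absolute change was 1.46 for P2 and 1.85 for P3, and 22 pairs in P2 and 31 in P3 changed less than nad4L and atp4. The difference in P3 rests on how footprints are counted, because with only footprints in frame 0 it was 0.63 and passed the rule.

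Other neighbours on the mitochondrial genome give a scale for this. There are 4 pairs of protein-coding genes with TPM and no entry between them in the gene table: nad4L and atp4, nad3 and rps12, rpl16 and nad9, and rps12 and ccmFN2. By footprints over RNA the other 3 pairs changed by at least 2.38 in P2 and at least 2.13 in P3 (absolute log2 values against WT), each more than nad4L and atp4. The 3 pairs are not independent, since rps12 is in 2 of them. Each of them holds rpl16 or rps12, whose footprints over RNA were much higher in the mutants. The log2 ratios over WT were 3.13 for rpl16 and 2.59 for rps12 in P2, and 3.86 and 2.91 in P3. Frame 0, the reading frame, held only 23.9% of rpl16 footprints in P2, 23.1% in P3 and 27.7% in WT. That was the lowest share of the 24 genes in each library. Frame 1 held 61.4%, 65.3% and 48.1% in the same order. How far the rpl16 values report ribosomes reading rpl16 was therefore not settled. In the pair of nad3 and rps12 the decrease of nad3 (-2.41 in P2 and -2.74 in P3) added to the change. The 3 pairs are thus a narrow scale, and whether lying side by side matters was not tested. Among all 13 pairs of protein-coding genes with TPM that follow each other in the table, entries between them allowed, 0 changed less than nad4L and atp4 by this measure in P2 and 3 did in P3. In RNA the 3 direct pairs changed by 0.042 to 1.17 in P2 and by 0.27 to 1.12 in P3, with 1 of the 3 pairs above nad4L and atp4 in each. The genes atp6.1 and atp6.2 could not be placed by name in that table, and its entries carry no strand, so shared transcripts were not assessed.

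**Figure D4:**
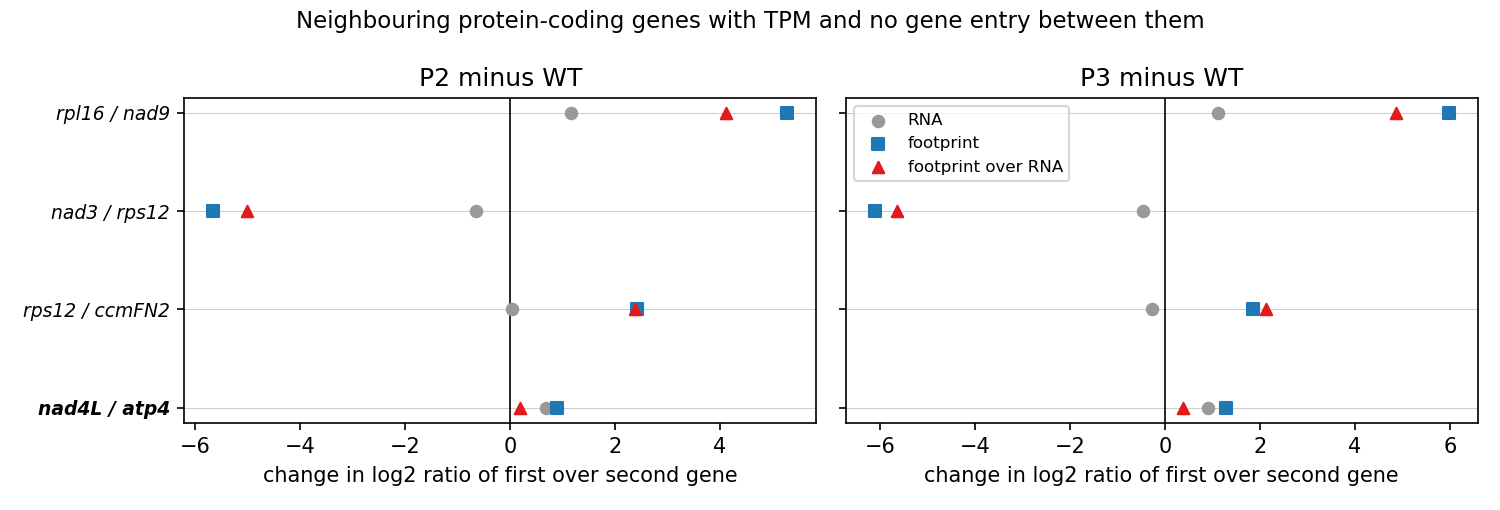
Change in the log2 ratio of the first over the second gene, P2 minus WT and P3 minus WT, for the 4 neighbouring pairs with TPM, with circles for RNA, squares for footprints and triangles for footprints over RNA. The triangle of nad4L and atp4 lies at 0.20 and 0.38, nearest to 0 of the 4 pairs.

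The codon frame of footprints shows how regularly they follow the reading frame, since a ribosome moves by 1 codon at a time and an even spread over the 3 frames would put 33.3% in each. Frame 0 held 49.8% of the atp4 footprints in P2 and 43.7% in P3, against 63.6% in WT. It held 43.7% of the nad4L footprints in P2 and 46.7% in P3, against 57.1% in WT. Frame 0 had the largest share for both genes in every library. Its share was lower for both genes in both mutants, as it was for all 24 genes with TPM.

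The frame 0 difference from WT was -13.4 percentage points in P2 and -10.4 in P3 for nad4L, and -13.8 and -19.9 for atp4. The medians over the 24 genes were -12.1 in P2 and -11.3 in P3, so nad4L was near the median in both and atp4 only in P2. In P3 atp4 had the fifth largest decrease of the 24 genes. The order of the pair differed between libraries: nad4L minus atp4 was -6.10 points in P2 and 2.95 points in P3, against -6.52 points in WT. The P3 footprint library had the fewest CDS reads (48653), and no counting interval was computed for these shares. Whether the change of order in P3 exceeds counting variation was therefore not worked out, and it is not taken as a difference between the genes.

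**Figure D5:**
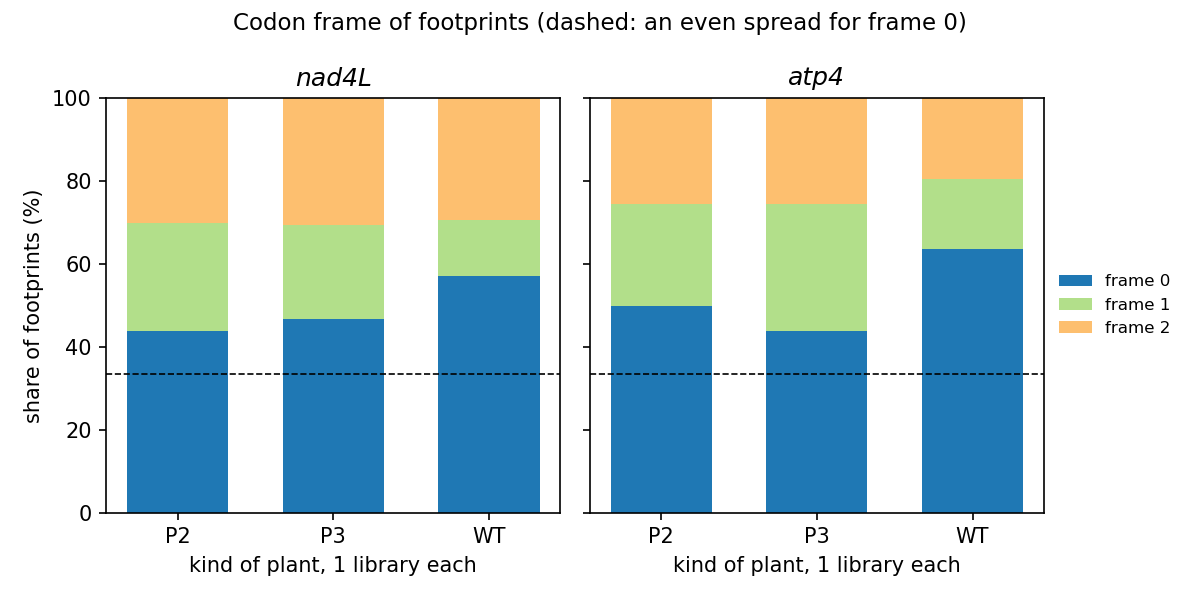
Share of footprints (%) in frames 0, 1 and 2 for nad4L and atp4 in P2, P3 and WT, 1 library per bar, with a dashed line at 33.3%. The frame 0 share is lower in P2 and P3 than in WT for both genes, and the frame 2 share of nad4L stays between 29.4% and 30.7%.

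Outside frame 0 the genes also differed. Frame 2 held 30.3% of the nad4L footprints in P2, 30.7% in P3 and 29.4% in WT, which ranked 5, 3 and 2 among the 24 genes. Frame 1 of nad4L held 26.1% in P2 and 22.7% in P3, against 13.5% in WT, so the loss from frame 0 appeared mostly in frame 1. This was not particular to nad4L. Over the 24 genes the median difference from WT in frame 1 was 7.80 points in P2 and 9.24 in P3. In frame 2 it was 3.43 and 2.74 points. For atp4, frame 1 held 24.6% in P2 and 30.7% in P3, against 16.8% in WT, and frame 2 held 25.6% in P2 and 25.6% in P3, against 19.6% in WT. Footprint TPM was also multiplied by the frame 0 share, without rescaling to a fixed total. For nad4L this gave 5185 in P2 and 4638 in P3, against 11681 in WT. For atp4 it gave 12879 in P2 and 7291 in P3, against 52988 in WT. The log2 ratios over WT were then -1.17 in P2 and -1.33 in P3 for nad4L and -2.04 and -2.86 for atp4. The frame 0 share was lower in both mutants for all 24 genes, so this product lowers the ratio over WT of every gene. No median over the 24 genes is set beside these ratios.

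P3 was also set against P2, which leaves out the WT libraries. atp4 had the lowest RNA ratio of the 24 genes for P3 over P2 (-0.24), and nad4L stood at -0.042, with the median gene at -0.016. Neither was called in RNA, where 0% of the genes were lower by the 1.5-fold rule. In footprints atp4 was 1.55-fold lower in P3 than in P2 (-0.63), and only atp9 had a lower ratio among the 24 genes. It passed the rule, as did 8.33% of the genes, and nad4L did not (-0.26). Footprints over RNA gave -0.39 for atp4 and -0.21 for nad4L, neither past the rule, where 4.17% of the genes were lower. With CDS-share scaling nad4L also passed it in footprints (-0.64), and both genes passed it in footprints over RNA (-0.60 for nad4L and -0.77 for atp4). The difference in frame 0 share, P3 minus P2, was -6.08 points for atp4 and 2.97 points for nad4L, and neither carries a counting interval. The log2 ratio of nad4L over atp4 was 0.20 higher in P3 than in P2 for RNA, 0.38 higher for footprints and 0.18 higher for footprints over RNA, all under the 1.5-fold rule, which 0%, 33% and 31.9% of the 276 pairs reached in that order.

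The partners of each gene in its own complex were compared with it next. Of 9 mitochondrial complex I genes listed, nad3, nad4L, nad6 and nad9 had TPM. In RNA 3 of these 4 were higher and 0 lower by the 1.5-fold rule in each mutant, with 58.3% of the 24 genes higher, so nad4L was the 1 member not called. nad9, a subunit of the arm that reaches into the matrix, stood at 89837 TPM in P2 and 91121 TPM in P3, against 48418 TPM in WT. By footprints over RNA 0 of the 4 were higher and 3 lower in each mutant, while over all genes the lower share was 25% for P2 and 29.2% for P3 (higher: 37.5% and 45.8%). nad3, a membrane-arm subunit like nad4L, stood at 0.979 in P2 and 0.781 in P3, against 5.20 in WT, the highest of all genes there. nad6, also of the membrane arm, stood at 1.36 in both mutants, against 1.09 in WT, and was not called. nad4L thus had the lowest value of these 4 genes in every kind of plant, while nad3 had the largest decrease.

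All 6 listed complex V genes had TPM. In RNA 0 of the 6 were higher and 2 lower in each mutant: atp8 and atp9 in P2, and atp8 and atp4 in P3. Of the 24 genes 58.3% were higher and 8.33% lower in each, so the genes lower in RNA were all of complex V. In footprints 1 was higher and 4 lower in each mutant, beside 58.3% higher and 29.2% lower over the 24 genes, with atp4 lower than each of the other five in its ratio. By footprints over RNA 1 was higher and 2 lower in P2 (atp4 and atp9) and 1 higher and 3 lower in P3 (atp1, atp4 and atp9). Over the 24 genes the lower share was 25% in P2 and 29.2% in P3, and the higher share 37.5% and 45.8%, so the share lower in complex V was near that of all genes in P2. atp9, the ring subunit that turns as protons pass, stood at 0.476 in P2 and 0.274 in P3, against 0.764 in WT. atp1, the alpha subunit of the catalytic head, stood at 0.783 in P2 and 0.677 in P3, against 1.11 in WT. The 1 gene higher by the rule was atp6.2, in footprints and in footprints over RNA alike. Its footprints over RNA stood at 2.42 in P2 and 2.56 in P3, against 0.918 in WT. The other copy of atp6, atp6.1, stood at 0.869 in P2 and 0.826 in P3, against 0.734 in WT, and was not called. Of mitochondrial footprint reads 11.5% in P2, 11.5% in P3 and 10.6% in WT matched more than 1 position. How such reads were shared between the copies was not examined. The high value of atp4 in WT (1.88) was above those of the other complex V genes, and in P2 (0.820) and P3 (0.626) it lay among them.

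The complex V counts depend on scaling in RNA, where 5 of 6 were lower in each mutant with CDS-share scaling and also with median-of-ratios scaling, beside 20.8% and 29.2% of the 24 genes. With CDS-share scaling all 6 were lower in footprints over RNA, but so were 87.5% of the 24 genes in P2 and 83.3% in P3, so this count says little about complex V. With median-of-ratios scaling the complex I counts in RNA became 0 higher and 1 lower in each mutant. Of the 24 genes 25% in P2 and 20.8% in P3 were then higher, and 29.2% lower in each. With CDS-share scaling 1 complex I gene was higher in RNA, where 45.8% of the 24 genes were.

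Likeness of pattern was measured as the root mean square difference of log2 TPM over the 6 libraries, after each gene's mean in its assay was subtracted. The genes most like nad4L were cox1, a core subunit of cytochrome c oxidase (0.105), atp1 (0.249) and atp6.1 (0.311). Those most like atp4 were atp9 (0.167), atp1 (0.315) and atp8 (0.354). The neighbours themselves were 0.467 apart, which made atp4 the ninth most like nad4L and nad4L the fifth most like atp4 among 23 other genes. The median distance was 0.820 from nad4L and 1.24 from atp4. These distances describe 6 libraries, 3 of each assay, that share their WT and mutant sources.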

How the data were processed

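Mitochondria were isolated from leaves, chloramphenicol was added on thawing to 100 µg per ml to hold ribosomes in place, and footprints were collected through a sucrose cushion after nuclease digestion, per the labels' protocols. STAR and featureCounts were used, per the submitters' processing notes. The sources used here do not give their versions, the genome build, the annotation, the read lengths kept or how footprints were assigned to frames. TPM over 24 genes and the fraction of footprints in each frame, for 140 genes, exons and open reading frames, were deposited by the authors, per the file headers. The fraction and number of reads in each class of sequence were deposited too, and the percentages of reads were computed from those numbers.

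From these, log2 ratios were computed without a pseudocount, since no TPM was 0, with Python 3.11.15, numpy 2.4.6 and pandas 2.3.3. Genes at least 1.5-fold apart were counted. Samples were grouped by title into 6 groups of 1 library, so no test, paired or not, was run. The arithmetic was tested on simulated data. Alternatives were a pseudocount of 1000 TPM, median-of-ratios scaling, scaling by the CDS share of all reads after trimming and filtering, leaving out the most abundant gene of each assay, leaving out genes with a mean under 5000 TPM, a 2-fold rule and, chosen after seeing the data, footprints in frame 0. The genes named are nad4L, atp4, the other complex I and V genes with values, the 3 most like each of the pair by the distance given above, and the genes of the neighbouring pairs, which were chosen after their values were seen. cox3, rps7 and ccmB were named after their values were seen. The genes and lists were chosen with earlier results of these data known. By name 22 of the 24 genes were found in the gene table of TAIR10.1, which was used only for names and order because the authors' build is unknown. The confidence that depth gives to a single gene was not computed. Reads per gene are not listed in the values used here, and the counts behind the frame shares were not worked out.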

Additional observations from a re-analysis of the deposited data

How the results depend on the processing

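No paired analysis was possible because each group had 1 library, and leaving out a replicate was not possible for the same reason. A pseudocount of 1000 TPM and leaving out genes under 5000 TPM changed no call or direction of nad4L, atp4 or their ratio. nad4L RNA turned negative with median-of-ratios scaling (-0.62 for P2 and -0.62 for P3 over WT), CDS-share scaling (-0.086 and -0.12) and without the most abundant gene (-0.019 and -0.019). For P3 over P2 it turned positive with median-of-ratios scaling (0.00030) and without the most abundant gene (0.00025). atp4 RNA in P2 passed the rule under those scalings (-1.32, -0.78 and -0.72 in that order). Without the most abundant gene nad4L in P2 was no longer called in footprints (-0.58) or footprints over RNA (-0.56). With CDS-share scaling P3 over P2 passed for nad4L in footprints (-0.64) and for nad4L (-0.60) and atp4 (-0.77) in footprints over RNA. With footprints in frame 0, the nad4L over atp4 ratio passed for P3 minus P2 in footprints (0.66) and for P3 minus WT in footprints over RNA (0.63). The cause of these shifts was not tested.

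Counts of complex genes moved too. Under 2-fold, RNA had 0 complex I genes higher and 1 complex V gene lower in each mutant. Of the 24 genes 33.3% were higher and 4.17% lower in RNA by that rule in each. Footprints under 2-fold had 0 complex I genes higher in each and 1 lower in P2, and footprints over RNA had 1 complex I and 1 complex V gene lower in P2. Over the 24 genes 54.2% were higher in footprints in each mutant and 16.7% lower in P2. In footprints over RNA 8.33% of the 24 genes were lower in P2. With median-of-ratios scaling RNA had 0 complex I genes higher, 1 complex I gene lower and 5 complex V genes lower in each mutant, while footprints had 0 complex I genes higher in each and 0 complex V genes higher in P2. Of the 24 genes 25% in P2 and 20.8% in P3 were then higher in RNA, and 29.2% lower in each. In footprints 37.5% of the 24 genes were higher in P2 and 45.8% in P3. With CDS-share scaling RNA had 1 complex I gene higher and 5 complex V genes lower in each, footprints had 0 higher in either complex and 4 complex I genes lower in each, and footprints over RNA had 0 complex V genes higher and 6 lower in each. Under CDS-share scaling most of the 24 genes were lower as well, 75% in P2 and 79.2% in P3 in footprints and 87.5% and 83.3% in footprints over RNA, so those counts say little about either complex. The frame 0 shares kept their direction as a log2 ratio to the other frames. Depth per gene was not worked out and variation between plants was not measured.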

Other observations

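The 5 complex I genes with introns have frame shares by exon and no TPM. Over the 28 complex I genes and exons the median frame 0 share was 38.5% in P2 and 35.3% in P3, against 57.0% in WT, and 27 of the 28 were lower in P2 and 27 in P3 than in WT. Of all 56 genes and exons 54 were lower in P2 and 55 in P3, so this count is that of the whole set. nad4L lay above that median in both mutants, with 9 of the 28 higher than it in P2 and 6 in P3, and near it in WT, with 13 higher.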
